A study of Rattus norvegicus with 20 samples.

Results

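The 8 genes described here code for the 2 main neuronal chloride cotransporters and for 6 subunits of the GABA-A receptor that change as hippocampal neurons mature. They are Slc12a5 (ENSRNOG00000018111), Slc12a2 (ENSRNOG00000015971), Gabra2 (ENSRNOG00000002349), Gabra3 (ENSRNOG00000056558), Gabra4 (ENSRNOG00000002336), Gabra5 (ENSRNOG00000010803), Gabrb2 (ENSRNOG00000003680) and Gabrd (ENSRNOG00000016385). The rule that picks them is a list of symbols. Each symbol matched 1 row among the 32883 genes listed, and 8 of 8 were among the 15272 genes that passed the low-count filter and were tested.

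GABA opens a chloride channel, and the direction of chloride flow depends on the chloride that a neuron holds. The importer NKCC1, the product of Slc12a2, keeps chloride high in newborn neurons, where GABA depolarises. The exporter KCC2, the product of Slc12a5, accumulates over the first postnatal weeks in the rodent hippocampus, lowers chloride and makes GABA inhibitory. Receptor composition changes over the same weeks: alpha2, alpha3 and alpha5 subunits are prominent in immature neurons, and delta joins alpha4 in receptors outside synapses that carry tonic current. NKCC1 is also abundant in the epithelium of the choroid plexus, which lies against the hippocampus.

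PolyA RNA was sequenced from the hippocampus of 20 Gunn rat pups at postnatal day 6, 5 pups in each of 4 groups. The Gunn rat carries an allele of Ugt1a1 that has lost its function, and the enzyme it codes for joins bilirubin to glucuronic acid in the liver. Jaundice is present in homozygous pups (jj) and absent in heterozygous pups (Nj, or Jj in some labels), so every pup of the study carries at least 1 mutant copy. Untreated Nj and untreated jj pups received no phototherapy. Pups of both genotypes in the light-treated groups received LED phototherapy, a treatment of newborn jaundice, from day 4 to day 6 in cycles of 3 h on and 3 h off, 12 h in all. Each library is taken as 1 pup, as far as the labels tell, and p-values measure the spread between these libraries.

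Total counts ran from 16.9 to 27.1 M (mega) per library. Titles of the samples begin with a prefix, which is J13, J14 or J15 in untreated Nj, J17 in every untreated jj library and J18 in every light-treated library of either genotype. Light and prefix therefore cannot be told apart, and only the comparison of light-treated jj with light-treated Nj lies within 1 prefix. The tissue was checked against markers. Summed over 8 genes of all neurons, such as Snap25 and Map2, levels in CPM (counts per 1 M counts of the library, with library sizes scaled by TMM) ran from 6272 to 8544, and summed over 11 genes of hippocampal excitatory neurons, such as Prox1 and Neurod2, from 1989 to 2275. The choroid plexus gene Ttr ran from 3.57 to 9662 CPM and passed 1000 CPM in 7 libraries, 1 of 5 in each untreated group, 2 of 5 in light-treated Nj and 3 of 5 in light-treated jj. In bulk tissue, fewer cells of a type and less RNA per cell cannot be told apart.

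With both genotypes averaged, 2 of the 8 genes were higher after light, namely Gabra4 and Gabrd, and none was lower. Among all genes tested, 10.1% passed in this comparison at an adjusted p under 0.05 (edgeR, quasi-likelihood), 4.35% as higher and 5.74% as lower. The fitted change was above 0 for 8 of 8, with a median log2 change of 0.15, and it was above 0 for 50.4% of all genes tested, whose median was 0.0009. Within Nj pups alone 0 of 8 passed (4% of all genes, 1.49% as higher and 2.51% as lower), and within jj pups alone 0 of 8 passed (0.164% of all genes, 0.0393% as higher and 0.124% as lower). At an unadjusted p under 0.05, edgeR gave 3 of 8 averaged (24.6% of all genes), 2 of 8 in Nj (18.1% of all genes) and 1 of 8 in jj (13% of all genes). After adjustment DESeq2 passed 3 of 8 averaged, 1 of 8 in Nj and 0 of 8 in jj, and over all genes it passed 1957, 1009 and 271, where edgeR passed 1541, 611 and 25. The median log2 change of the 8 was 0.14 in Nj and 0.12 in jj, above 0 for 8 of 8 in each, where 50.3% of all genes in Nj and 49.8% in jj were above 0. In jj, Gabra5 was at 0.01 and Gabra2 at 0.02, and without untreated jj library 3 they were at -0.06 and -0.03. Slc12a2 fell below 0 in jj and on average without the libraries above 1000 CPM of Ttr. The Nj and jj comparisons use separate libraries, but the light-treated libraries of both share prefix J18. The average uses both.

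**Figure D1:**
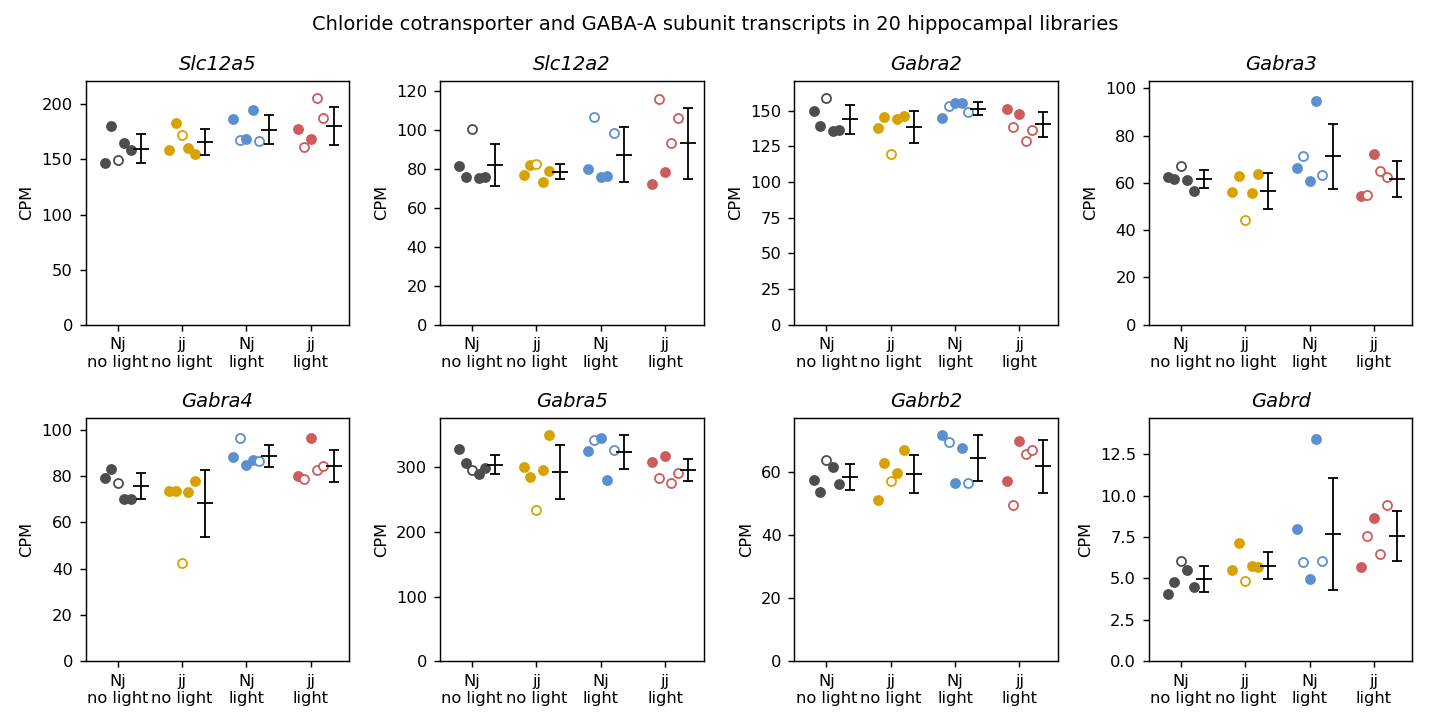
CPM of the 8 genes (vertical axes, starting at 0) in the 4 groups, 1 point per library and a black bar for the mean ± SD of 5 libraries; open circles mark the 7 libraries above 1000 CPM of Ttr. Gabra4 is the panel in which each light-treated group sits wholly above the untreated group of its genotype, and the open circles of Slc12a2 run up to 116 CPM.

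Gabra4 codes for alpha4, a subunit that pairs with delta in receptors outside the synapse and is abundant in the dentate gyrus. Its level was 79.2, 82.9, 77.1, 70.2 and 70.3 CPM in the 5 untreated Nj libraries and 88.2, 96.6, 84.6, 87.2 and 86.7 CPM in the 5 light-treated Nj libraries. It was 73.5, 73.6, 42.7, 73.2 and 78.1 CPM in untreated jj and 79.9, 78.6, 96.5, 82.5 and 84.4 CPM in light-treated jj. In both genotypes the lowest light-treated library lay above the highest untreated one, by under 2 CPM in Nj and by under 1 CPM in jj. Ranges were apart in this way, in either direction, for 6.46% of all genes in Nj and 2.96% in jj, and for 0 of the other 7 genes. With genotypes pooled, 10 libraries against 10, the ranges of Gabra4 overlapped, and those of 0.478% of all genes were apart. Averaged over genotypes, Gabra4 rose from 72.1 to 86.5 CPM, a log2 change of 0.26 (SE 0.08, 95% interval 0.10 to 0.43, edgeR adjusted p = 0.040). The log2 change was 0.22 in Nj (SE 0.11, adjusted p = 0.302, edgeR) and 0.31 in jj (SE 0.11, adjusted p = 0.251, edgeR), so neither genotype alone passed. The fit of the 2 Nj groups alone did pass, at 0.22 (SE 0.05, adjusted p = 0.0259, edgeR).

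The untreated jj library at 42.7 CPM, number 3, decided part of these values. It was the lowest of the 20 libraries for 4 of the 8 genes (Gabra2, Gabra3, Gabra4 and Gabra5), and it had the highest Ttr level, 9662 CPM, and the lowest summed level of the 8 neuronal markers, 6272 CPM. Without it the averaged change of Gabra4 was 0.20 (SE 0.04, edgeR adjusted p = 0.00187), and the change in jj was 0.18 in place of 0.31 (SE 0.06, adjusted p = 0.145). Leaving out each library in turn kept the averaged change of Gabra4 past the threshold in 11 of 20 fits. The call ended without untreated Nj library 3, 4 or 5, light-treated Nj library 1, 2, 4 or 5, or light-treated jj library 3 or 5, with edgeR adjusted p of 0.0536 to 0.0799 and log2 changes of 0.24 to 0.27. Without all 7 libraries above 1000 CPM of Ttr it was 0.22 (SE 0.05, adjusted p = 0.0289, edgeR).

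Gabrd codes for delta, the subunit that gives receptors outside synapses their high affinity for GABA, and its transcript was scarce at this age, at 89 to 268 counts per library. Its level was 4.07, 4.82, 6.03, 5.51 and 4.51 CPM in untreated Nj and 7.96, 5.99, 5.00, 13.4 and 6.02 CPM in light-treated Nj. It was 5.51, 7.13, 4.84, 5.75 and 5.67 CPM in untreated jj and 5.68, 7.55, 8.62, 6.48 and 9.43 CPM in light-treated jj. Treated and untreated ranges overlapped in both genotypes, and 5 of the 10 light-treated libraries lay above all 10 untreated ones. Averaged over genotypes, Gabrd rose from 5.38 to 7.61 CPM, a log2 change of 0.50 (SE 0.15, 95% interval 0.19 to 0.82, edgeR adjusted p = 0.0372). In Nj the change was 0.62 (SE 0.21, adjusted p = 0.107, edgeR), and in jj 0.39 (SE 0.21, adjusted p = 0.451, edgeR). Light-treated Nj library 4, at 13.4 CPM, also held the highest Gabra3 value of the 20. Without it the change in Nj was 0.33 (SE 0.16, adjusted p = 0.291) and the averaged change 0.36 (SE 0.11, adjusted p = 0.0417, edgeR). The averaged call held in 8 of 20 fits with a library left out. It ended without untreated Nj library 1, 2, 4 or 5, untreated jj library 1, 3, 4 or 5, light-treated Nj library 1, or light-treated jj library 2, 3 or 5, with adjusted p of 0.0513 to 0.0722 (edgeR) and log2 changes of 0.46 to 0.53. Without light-treated Nj library 3, Gabrd passed in Nj as well, at 0.75 (adjusted p = 0.0487, edgeR). Without the 7 libraries above 1000 CPM of Ttr the averaged change was 0.57 (SE 0.21, adjusted p = 0.156). The Y-linked transcript Kdm5d was above 10 CPM in light-treated Nj library 4 and light-treated jj libraries 3 and 5. These held the highest Gabrd values of the 20, 13.4, 8.62 and 9.43 CPM. In untreated Nj 1 and 5 and jj 3 and 5, also above that Kdm5d level, Gabrd was 4.07, 4.51, 4.84 and 5.67 CPM. With Y-linked transcripts as a covariate 1 of the 8 genes passed on average, and 1405 of all genes, against 2 of 8 and 1541 without it. Whether the light change of Gabrd differs with Kdm5d was not tested.

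The promoters of these 2 genes are shown because they carried the light calls, beside that of Slc12a5, whose promoter is known to respond to the early growth response factor Egr4. Egr3, of the same family, is known to activate Gabra4. Each sequence runs 5′ to 3′ on the gene's strand from 250 bases before to 50 bases after the start site, from RefSeq on the rat build GRCr8. Gabra4 is at chr14:36944497-36944796 (plus strand), Gabrd at chr5:171252660-171252959 (minus strand) and Slc12a5 at chr3:174115583-174115882 (plus strand). Capitals mark matches to the Egr motif GCGNGGGCG on either strand.
Gabra4: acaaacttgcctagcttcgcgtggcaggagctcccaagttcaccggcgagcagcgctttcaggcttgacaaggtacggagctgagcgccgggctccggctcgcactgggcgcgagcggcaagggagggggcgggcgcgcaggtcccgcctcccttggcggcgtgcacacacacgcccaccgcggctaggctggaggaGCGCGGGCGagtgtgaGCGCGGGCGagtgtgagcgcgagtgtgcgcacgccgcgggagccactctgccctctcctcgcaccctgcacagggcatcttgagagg
Gabrd: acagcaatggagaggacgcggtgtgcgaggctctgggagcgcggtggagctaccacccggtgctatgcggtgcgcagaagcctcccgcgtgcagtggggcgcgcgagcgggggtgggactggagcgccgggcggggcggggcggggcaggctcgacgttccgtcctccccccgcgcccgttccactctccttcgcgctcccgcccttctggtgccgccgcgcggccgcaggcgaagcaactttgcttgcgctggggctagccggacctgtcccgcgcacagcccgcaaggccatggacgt
Slc12a5: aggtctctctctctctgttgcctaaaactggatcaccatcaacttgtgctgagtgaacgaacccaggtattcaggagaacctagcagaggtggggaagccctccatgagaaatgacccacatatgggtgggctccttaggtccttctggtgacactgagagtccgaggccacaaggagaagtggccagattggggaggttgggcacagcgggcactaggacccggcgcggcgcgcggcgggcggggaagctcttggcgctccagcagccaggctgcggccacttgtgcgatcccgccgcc
Gabra4 held 2 Egr matches, both GCGCGGGCG on the plus strand, which begin 53 and 37 bases before the start site and do not overlap. At least 1 such match was present in 4.98% of the 33469 promoters of the table, on windows of the same length and any base composition. The share among promoters as rich in G and C was not computed. Whether an Egr factor acts on Gabra4 in these pups was not tested. The promoters of 7 of the 8 genes were in the table, and the other 6 held no Egr match. The letters CACGTG (an E-box, in 6.42% of promoters), TGACGTCA (a full cyclic AMP response element, 1.83%) and its part TGACG (21.2%) had no match in any of the 7, and TATAAA (14.2%) had 1, in Gabra3, on the minus strand, 194 bases before the start site. Base composition differed as well: G and C made up 70.7% of the Gabra4 window, 73.7% of Gabrd and 61.3% of Slc12a5, against a median of 51.7% over all promoters.

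Slc12a5, the chloride exporter, did not pass in any comparison of the edgeR fit of all 20 libraries, and its fitted changes with light were small. Its level was 147, 180.1, 149.5, 165 and 158 CPM in untreated Nj and 187, 168, 169, 195 and 167 CPM in light-treated Nj. It was 159, 184, 173, 161 and 155 CPM in untreated jj and 178, 161, 169, 206 and 188 CPM in light-treated jj. The groups overlapped, with 4 of 10 light-treated libraries above all 10 untreated ones. Averaged over genotypes the log2 change was 0.13 (SE 0.05, 95% interval 0.03 to 0.23, edgeR adjusted p = 0.0809), on group levels of 163 and 179 CPM. It was 0.15 in Nj (SE 0.07, adjusted p = 0.250, edgeR) and 0.12 in jj (SE 0.07, adjusted p = 0.471, edgeR). With DESeq2 the averaged change passed, at 0.14 (adjusted p = 0.0476). With edgeR it passed without untreated Nj library 2 (0.16, adjusted p = 0.0275), untreated jj library 2 (0.16, adjusted p = 0.0380) or light-treated jj library 2 (0.15, adjusted p = 0.0494). The group means from lowest to highest were 159.9 ± 13.2 in untreated Nj, 166 ± 11.8 in untreated jj, 177 ± 13.0 in light-treated Nj and 180.3 ± 17.4 CPM in light-treated jj (SD, n = 5). Untreated and light-treated means differed by more than either SD in Nj. In jj they differed by more than the SD of the untreated group and less than that of the light-treated group.

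Slc12a2, the chloride importer, was higher in most of the libraries rich in choroid plexus transcripts. Its level was 81.6, 75.9, 101, 75.5 and 75.8 CPM in untreated Nj and 79.9, 107, 75.8, 76.4 and 98.3 CPM in light-treated Nj. It was 76.8, 82.2, 82.4, 73.2 and 79.0 CPM in untreated jj and 72.6, 116, 78.5, 93.4 and 106 CPM in light-treated jj. In the 7 libraries above 1000 CPM of Ttr, Slc12a2 ran from 82.4 to 116 CPM (101 ± 10.8, SD), and in the other 13 from 72.6 to 82.2 CPM (77.2 ± 2.94). The lowest of the 7, untreated jj library 3, was within 1 CPM of the highest of the 13 although it had the most Ttr of all, 9662 CPM. Slc12a5 stood at 173 ± 18.5 and 169.7 ± 14.1 CPM in the same sets of 7 and 13 libraries, which overlapped. The averaged change of Slc12a2 with light was 0.17 (SE 0.09, 95% interval -0.01 to 0.36, edgeR adjusted p = 0.244), 0.09 in Nj (adjusted p = 0.762, edgeR) and 0.25 in jj (adjusted p = 0.415, edgeR). Without the 7 libraries above 1000 CPM of Ttr the averaged change was -0.02 (adjusted p = 0.815) and that in jj -0.05 (adjusted p = 0.841). The group means were then 77.2 ± 2.94 in untreated Nj (n = 4), 77.8 ± 3.80 in untreated jj (n = 4), 77.3 ± 2.24 in light-treated Nj (n = 3) and 75.5 ± 4.19 CPM in light-treated jj (n = 2). The summed level of 19 choroid plexus genes ran from 46.8 to 4673 CPM (median 518) in untreated Nj, 44.5 to 10616 (111) in untreated jj, 61.7 to 4454 (523) in light-treated Nj and 109.9 to 8553 (5973) in light-treated jj.

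**Figure D2:**
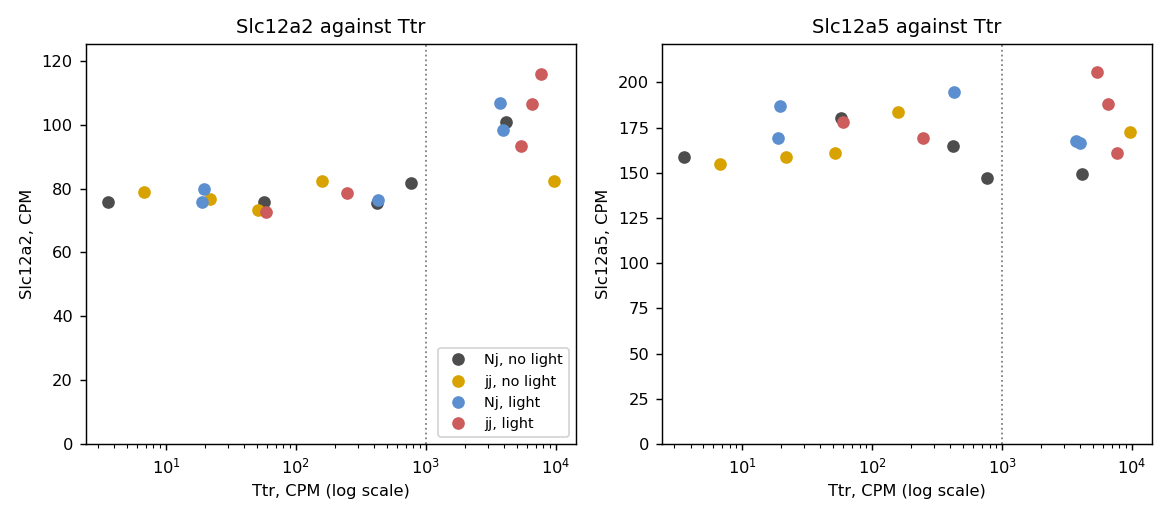
CPM of Slc12a2 (left) and Slc12a5 (right, both on linear axes from 0) against CPM of Ttr (horizontal log axis), 1 point per library coloured by group; the dotted line is at 1000 CPM of Ttr. To the right of the line Slc12a2 runs from 82.4 CPM, in the library with the most Ttr, to 116 CPM, and to its left from 72.6 to 82.2 CPM; Slc12a5 overlaps across the line.

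The subunits alpha2, alpha3 and alpha5, prominent in immature hippocampus, gave 0 calls in any comparison with edgeR, 0 at an unadjusted p under 0.05 and 0 with DESeq2. Gabra2, which codes for alpha2, a subunit of synapses on the axon initial segment, was 149.7, 139, 159, 136 and 137 CPM in untreated Nj and 145, 153, 155, 155 and 149 CPM in light-treated Nj. It was 138, 146, 119.7, 144 and 146 CPM in untreated jj and 151, 138, 148, 129 and 136 CPM in light-treated jj. All 4 groups overlapped, and the averaged change was 0.04 (SE 0.04, 95% interval -0.04 to 0.13, edgeR adjusted p = 0.523). Gabra5 codes for alpha5, which the hippocampus holds in large amount and which carries tonic current in pyramidal cells. It was 328, 306, 296, 289.9 and 299 CPM in untreated Nj and 325, 342, 345, 281 and 326 CPM in light-treated Nj. It was 300.4, 284, 234, 296 and 349 CPM in untreated jj and 307, 284, 317, 276 and 290.3 CPM in light-treated jj. The highest Gabra5 value of the 20, 349 CPM, and the lowest, 234 CPM, were both in untreated jj, and the averaged change was 0.05 (SE 0.05, 95% interval -0.06 to 0.16, edgeR adjusted p = 0.598).

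Gabra3 codes for alpha3, an early subunit whose transcript falls with age in forebrain. It was 62.3, 61.8, 67.2, 61.0 and 56.4 CPM in untreated Nj and 66.3, 71.2, 60.7, 94.7 and 63.3 CPM in light-treated Nj. It was 56.3, 63.0, 44.4, 55.6 and 63.7 CPM in untreated jj and 54.3, 54.7, 72.1, 64.8 and 62.3 CPM in light-treated jj. A single light-treated Nj library, number 4, stood well above the rest. The averaged change was 0.16 (SE 0.08, 95% interval -0.005 to 0.33, edgeR adjusted p = 0.217), and without that library it was 0.11.

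Gabrb2 codes for beta2, a subunit of the most common adult receptor. It was 57.5, 53.9, 63.8, 61.8 and 56.2 CPM in untreated Nj and 71.8, 69.8, 56.6, 67.8 and 56.8 CPM in light-treated Nj. It was 51.2, 63.0, 57.2, 59.7 and 67.0 CPM in untreated jj and 57.3, 49.6, 69.9, 65.9 and 67.1 CPM in light-treated jj. The lowest of the 20 values lay in light-treated jj and the highest in light-treated Nj, and the groups overlapped. The averaged change was 0.10 (SE 0.06, 95% interval -0.04 to 0.23, edgeR adjusted p = 0.376).

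**Figure D3:**
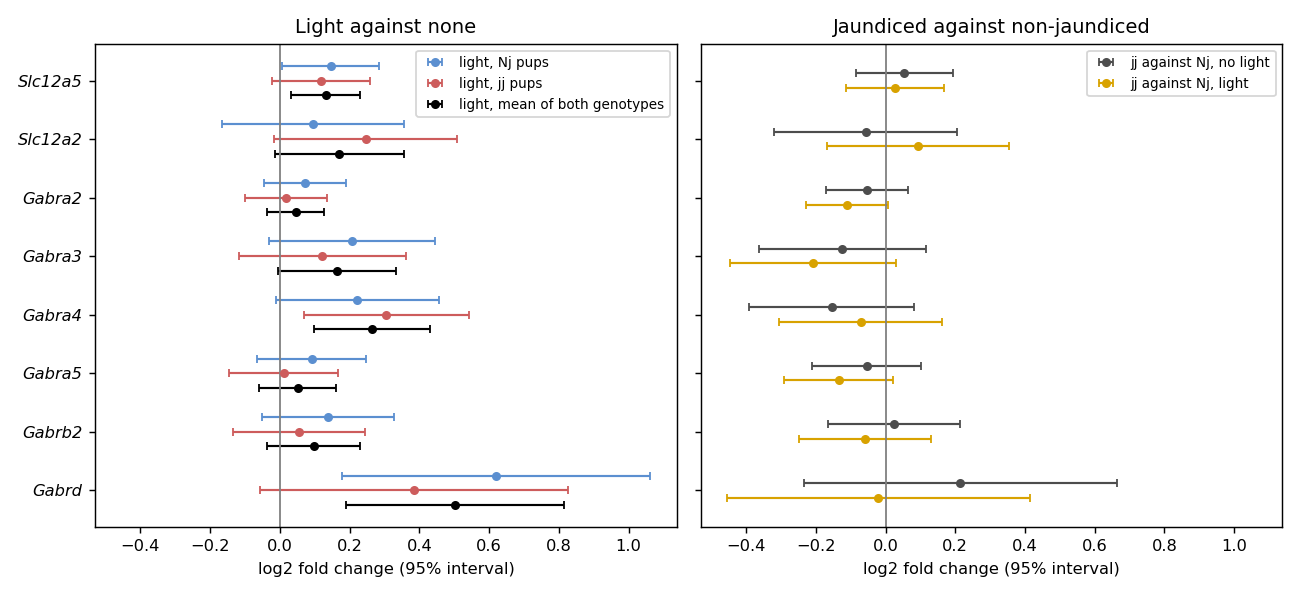
Fitted log2 fold changes of the 8 genes (points) with 95% intervals (horizontal bars) for light against none in Nj, in jj and averaged (left), and for jj against Nj without and with light (right). All light points lie above 0, the largest for Gabrd (0.62 in Nj), and in the right panel the points lie between -0.21 and 0.22.

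Jaundice was not accompanied by a detected change in these genes. Among untreated pups 0 of 8 passed in jj against Nj, where 0% of all genes passed. At an unadjusted p under 0.05 edgeR gave 0 of 8, against 6.36% of all genes. After adjustment DESeq2 called 0 of 8, and only 1 over all genes. The median log2 change of the 8 was -0.05, with 3 above 0 and 5 below, and 51% of all genes were above 0. CPM ranges were apart for 0 of 8, and for 1% of all genes. The widest interval was that of Gabrd, at 0.22 (SE 0.22, 95% interval -0.23 to 0.66), and the narrowest that of Gabra2, at -0.05 (SE 0.06, -0.17 to 0.06). Slc12a5 was at 0.05 (SE 0.07, -0.09 to 0.19) and Slc12a2 at -0.06 (SE 0.13, -0.32 to 0.21). Gabra4 was at -0.15 (SE 0.11, -0.39 to 0.08), and without untreated jj library 3 at -0.02. The intervals of Slc12a5 and Gabra2 thus lie within a log2 change of 0.20 in either direction. Those of Slc12a2, Gabra3, Gabra4, Gabra5, Gabrb2 and Gabrd reach beyond it.

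Among light-treated pups, the comparison that lies within 1 title prefix, 0 of 8 passed in jj against Nj, where 0% of all genes passed (edgeR). At an unadjusted p under 0.05 edgeR gave 0 of 8, against 6.62% of all genes. After adjustment DESeq2 called 0 of 8, and only 2 over all genes. The median log2 change was -0.07, with 2 of 8 above 0 and 51.2% of all genes above 0. CPM ranges were apart for 0 of 8, and for 1.2% of all genes. The alpha subunits had the lowest values: Gabra3 was at -0.21 (SE 0.11, 95% interval -0.45 to 0.03), Gabra5 at -0.13 (SE 0.08, -0.29 to 0.02) and Gabra2 at -0.11 (SE 0.06, -0.23 to 0.01), each with an edgeR adjusted p of 0.724. Slc12a5 was at 0.03 (SE 0.07, -0.11 to 0.17), and Slc12a2 at 0.09 (SE 0.12, -0.17 to 0.36). Without light-treated Nj library 4, Gabra3 was at -0.08.

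The difference between the light changes of the 2 genotypes was tested as an interaction, and 0 of 8 passed (0% of all genes). At an unadjusted p under 0.05 edgeR gave 0 of 8, against 3.41% of all genes. After adjustment DESeq2 called 0 of 8, and 0 over all genes. The interaction, the change in jj minus that in Nj, ran from -0.24 for Gabrd (SE 0.30, 95% interval -0.86 to 0.39) to 0.15 for Slc12a2 (SE 0.18, -0.22 to 0.52), and it was above 0 for 2 of 8, where 51.3% of all genes were. It was 0.08 for Gabra4 (SE 0.16, -0.25 to 0.41) and -0.03 for Slc12a5 (SE 0.10, -0.23 to 0.17).

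Of 13 other GABA-A and GABA-rho subunits 10 were tested. Their log2 change with light was above 0 for 9 of 10 on average (median 0.07), where 50.4% of all genes were. It was above 0 for 10 of 10 in Nj (median 0.12) and for 5 of 10 in jj (median 0.001). Of those that did not pass with light on average, Gabrb1, which codes for beta1, was at a log2 change of 0.06 (SE 0.05, edgeR adjusted p = 0.458). Gabrg1, which codes for gamma1, was at 0.16 (SE 0.09, adjusted p = 0.252, edgeR).

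The balance between genes was read within each library as a ratio of CPM, which is not scaled to transcript length and compares groups only. The ratio of exporter to importer, Slc12a5 to Slc12a2, was 1.80, 2.37, 1.48, 2.18 and 2.09 in untreated Nj and 2.34, 1.57, 2.23, 2.55 and 1.69 in light-treated Nj. It was 2.07, 2.23, 2.09, 2.20 and 1.96 in untreated jj and 2.45, 1.39, 2.15, 2.20 and 1.76 in light-treated jj. The group means were 1.99 ± 0.35 in untreated Nj, 2.11 ± 0.11 in untreated jj, 2.08 ± 0.42 in light-treated Nj and 1.99 ± 0.42 in light-treated jj (SD, n = 5), which differed by less than their SDs in untreated Nj and in both light-treated groups. The lowest value, 1.39, was in light-treated jj library 2, which had 7667 CPM of Ttr. The ratio of Gabrd to Gabra5, 2 subunits that carry tonic current, was 0.0165 ± 0.0032, 0.0200 ± 0.0033, 0.0246 ± 0.0135 and 0.0256 ± 0.0051 in the same order, and the untreated and light-treated ranges overlapped in both genotypes. The widest spread was in light-treated Nj, where library 4 stood at 0.0477 and the other 4 at 0.0145 to 0.0245.

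**Figure D4:**
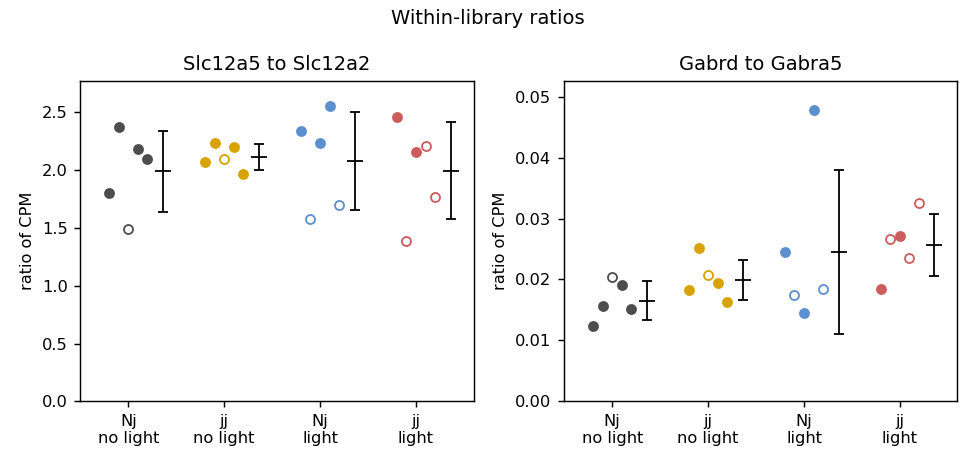
Within-library ratios of CPM (vertical axes from 0) for Slc12a5 to Slc12a2 and Gabrd to Gabra5 in the 4 groups, 1 point per library, a black bar for the mean ± SD of 5 libraries and open circles for libraries above 1000 CPM of Ttr. The cotransporter ratio has means of 1.99 to 2.11 in the 4 groups, and the Gabrd to Gabra5 ratio has its highest point, 0.0477, in light-treated Nj.

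Among 19 genes that act on the cotransporters, 1 was higher with light on average and 0 lower, where 4.35% of all genes were higher and 5.74% lower, and the list median was 0.005. At an unadjusted p under 0.05 there were 8 of 19, against 24.6% of all genes. It was Egr4, an activity-induced factor known to activate Slc12a5, at 0.34 (SE 0.08, edgeR adjusted p = 0.0113). Its level was 6.11 ± 0.86 CPM in untreated Nj, 5.52 ± 0.83 in untreated jj, 6.68 ± 0.56 in light-treated Nj and 8.04 ± 0.89 in light-treated jj (SD, n = 5), and the ranges were apart in jj. Without the libraries above 1000 CPM of Ttr its averaged change was 0.24 (edgeR adjusted p = 0.212), in a fit that called 424 of all genes against 1541. Of the 7 other cation-chloride cotransporters 6 were tested and 0 passed with edgeR, with 3 at an unadjusted p under 0.05 and a median of 0.04.

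Proteins that place GABA-A receptors at the synapse gave calls in both directions. Of 22 tested, 4 were higher and 2 lower with light on average, with a median of -0.0006. Over all genes 4.35% were higher and 5.74% lower. At an unadjusted p under 0.05 edgeR gave 7 of 22, against 24.6% of all genes. Nsf (0.12, SE 0.03, edgeR adjusted p = 0.0192), Trak2 (0.13, SE 0.04, adjusted p = 0.0466) and Gabarapl1 (0.08, SE 0.03, adjusted p = 0.0443), which serve receptor trafficking, were among those higher. Mdga1, which restrains neuroligin at inhibitory synapses, fell by 0.21 (SE 0.05, adjusted p = 0.0113, edgeR), and Shisa7, an auxiliary subunit, fell by 0.14 (SE 0.04, adjusted p = 0.0151, edgeR). Gphn itself was at 0.07 (adjusted p = 0.298). Without the libraries above 1000 CPM of Ttr, Nsf, Trak2, Gabarapl1, Mdga1 and Shisa7 no longer passed (edgeR adjusted p of 0.100 to 0.244). That fit called 424 of all genes, where the fit of all 20 libraries called 1541. Apart from fits with 1 library left out, it was the only fit in which Nsf, Mdga1 and Shisa7 lost the call. Gabarapl1 lost the call in 2 such fits and Trak2 in 3. With a library left out, Trak2 passed in 8 and Gabarapl1 in 13 of 20 fits of the average, and Nsf, Mdga1 and Shisa7 in 20.

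Of 9 genes of GABA synthesis, transport and breakdown, 2 were higher and 1 lower with light on average, with a median of 0.07. Over all genes 4.35% were higher and 5.74% lower. At an unadjusted p under 0.05 edgeR gave 4 of 9, against 24.6% of all genes. Gad2, 1 of the enzymes that make GABA, was 218 ± 20.1 and 252 ± 6.55 CPM in untreated and light-treated Nj and 205 ± 26.4 and 257 ± 24.7 CPM in jj, with ranges apart in both genotypes. Its averaged change was 0.27 (SE 0.06, edgeR adjusted p = 0.00497). Aldh5a1, which breaks GABA down further, was higher by 0.14 (adjusted p = 0.0192, edgeR), and the transporter Slc6a11 fell by 0.12 (adjusted p = 0.0376, edgeR), which held in 9 of 20 fits with a library left out. In the other alternative fits Aldh5a1 lost its call in 1 and Slc6a11 in 3. The other synthetic enzyme Gad1 was at 0.08 (adjusted p = 0.242) and the vesicular transporter Slc32a1 at -0.03 (adjusted p = 0.738), and these 2 did not pass.

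Of 8 genes of GABA-B receptors and their partners, 5 were tested and 2 were higher with light on average: Kcnj9, a potassium channel subunit, at 0.30 (SE 0.07, edgeR adjusted p = 0.00690; 0.35 in Nj alone, SE 0.10, adjusted p = 0.0442) and Gabbr2 at 0.10 (SE 0.03, adjusted p = 0.0350, edgeR). Over all genes 4.35% were higher on average and 1.49% in Nj alone. At an unadjusted p under 0.05 edgeR gave 3 of the 5 on average, against 24.6% of all genes. Of 9 carbonic anhydrases and bicarbonate transporters 7 were tested, with 2 at an unadjusted p under 0.05 on average. Of these 7, 1 was higher, Slc4a10, a bicarbonate transporter of neurons that choroid plexus also makes. It was at 0.22 (SE 0.04, edgeR adjusted p = 0.00110) and, in Nj alone, at 0.23 (SE 0.05, adjusted p = 0.0222, edgeR). With a library left out, Slc4a10 passed in 20 of 20 fits of the average and in 6 of 10 in Nj, Kcnj9 in 20 of 20 and in 2 of 10, and Gabbr2 in 18 of 20 of the average. In the other alternative fits Gabbr2 lost its averaged call in 1. In Nj, Kcnj9 lost its call in 4 of them and Slc4a10 in 1. Within jj the lowest edgeR adjusted p among the genes of these lists was 0.0529, for Egr4 (log2 0.54).

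Markers of other cells and of maturity moved in the same libraries, and their part in the results above was not tested, except for choroid plexus, through the fits without the libraries above 1000 CPM of Ttr and a fit with the choroid plexus level as a covariate. With that covariate the averaged change was 0.31 for Gabra4 (edgeR adjusted p = 0.0135), 0.50 for Gabrd (adjusted p = 0.0498) and 0.07 for Slc12a2 (adjusted p = 0.391), and 2 of 8 passed, as in the fit without it. In the averaged light comparison 4.35% of all genes were higher, 5.74% were lower and 24.6% had an unadjusted edgeR p under 0.05. There, 4 of 8 genes of all neurons were higher and 0 lower (median 0.08). Their summed levels were 7521 to 8251 CPM in untreated Nj, 6272 to 8088 in untreated jj, 8173 to 8544 in light-treated Nj and 7431 to 8417 in light-treated jj. Among immature neuron genes 0 of 10 were higher and 5 lower (median -0.22), with sums of 8862 to 9831, 7716 to 9435, 7329 to 8670 and 7346 to 8187 CPM in the same order. Astrocyte genes had 4 of 9 higher and 1 lower (median 0.18), with sums of 2405 to 2987, 2466 to 2856, 2783 to 3042 and 2784 to 3035 CPM. Hippocampal excitatory neuron genes had 1 of 11 higher and 2 lower, with 8 of 11 below 0 (median -0.13), and interneuron genes 3 of 11 higher and 3 lower (median -0.03). Microglia genes had 3 of 8 higher and 0 lower (median 0.18). Meninges and fibroblast genes had 0 of 10 called by edgeR and 4 at an unadjusted p under 0.05, with 9 of 10 below 0 (median -0.37). Choroid plexus genes had 0 of 18 called by edgeR, 0 at an unadjusted p under 0.05, and a median of 0.68.

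Across the 20 libraries the genes whose log2 CPM most resembled each of the 8 were named by Pearson's r, as a description of libraries that share depth, tissue content and light. For Slc12a2 they included Twsg1 (0.93), Htr2c (0.92) and Mospd2 (0.90), of which Htr2c is known from choroid plexus. For Slc12a5 they were Sncb (0.88), Pacsin1 (0.86), Tiam1 (0.86), Fbxl16 (0.85) and Mfsd12 (0.85), and the most opposite was Sh3bgrl (-0.82). Gabra4 was closest to Tmem30a (0.97), Gpm6a (0.97) and Ppp3r1 (0.97), and among the closest to Gabra5 were Opcml (0.95) and Clcn3 (0.94). Gabra2 was closest to Rbm26 (0.93), Gabra3 to Klhl13 (0.93), Gabrb2 to Sstr1 (0.90) and Gabrd to Trank1 (0.89). Among the 8 genes themselves the highest values were 0.72 for Gabra4 with Gabra5 and 0.72 for Gabra3 with Gabra4, and Slc12a5 with Slc12a2 gave -0.002. Untreated jj library 3 was the lowest of the 20 for Gabra2, Gabra3, Gabra4 and Gabra5, and r was not computed without it.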

How the data were processed

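The authors deposited 1 table of raw counts, not normalised, of 32883 genes with rat Ensembl identifiers in 20 libraries. The tools named are FastQC, TopHat2 2.0.13 (an aligner), Subread (a read counter) and edgeR, per the submitters' processing notes. A mouse build (mm10) is named there, although the identifiers are of rat; the rat build and the strand setting were not given in the sources used here. The labels speak of more untreated pups than the 5 per group analysed here.

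Counts were filtered with filterByExpr by group, leaving 15272 genes, and TMM factors were used. A single edgeR 4.0.16 model (R 4.3.3, limma 3.58.1) took in all 20 libraries, with a mean per group. Contrasts were tested with the robust quasi-likelihood F-test, two-sided, and adjusted by Benjamini-Hochberg over all genes at 0.05. Each edgeR standard error (SE) was derived as the size of the log2 change divided by the square root of its F statistic. Intervals are 95%, from these and a t quantile. CPM use TMM-scaled library sizes, and at 16.9 to 27.1 M (mega) counts per library the scarcest of the 8 genes had 89 counts or more. The script was tested on simulated counts. DESeq2 1.42.0 was the second tool. Other alternatives were another scaling, other count filters, newer dispersion estimates, covariates for choroid plexus and Y-linked transcripts, fewer groups or libraries, and leaving out each library in turn. Promoters came from RefSeq (GRCr8).

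The genes, gene lists, motifs and alternatives were chosen with earlier results of these data known. All 8 genes are named in each comparison or counted there, with the GABA-A and GABA supply genes and up to 4 genes per list past the threshold with the lowest p. Some genes that this rule names are not reported here, and counts include them.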

Additional observations from a re-analysis of the deposited data

Results flagged for a closer look

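In 2 of the 40 sets of 5 libraries examined, 1 library lay far from the other 4, with a gap to its nearest neighbour above 0.71 of the whole range of its group. Chance flags about 1 in 20 such sets. Gabra4 was 42.7 CPM in untreated jj library 3, the lowest of its group, with a gap of 0.863 of the range. Slc12a2 was 101 CPM in untreated Nj library 3, the highest of its group (0.759 of the range), and that library had 4111 CPM of Ttr, the only one of its group above 1000 CPM.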

How the results depend on the processing

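The count of the 8 genes called with light averaged over genotypes was 2, both higher, and it was 0 with no filter on low counts, 1 with Y-linked transcripts as a covariate, 1 without the libraries above 1000 CPM of Ttr, 1 with untreated Nj libraries of prefix J15 only, 3 with DESeq2 (Slc12a5 added), and 0 to 3 with a library left out. For light in Nj the count was 0, and it was 1 with DESeq2 (Gabrd), 1 with only the groups compared (Gabra4), 1 without untreated jj library 3 and light-treated Nj library 4 together (Gabra4; chosen after seeing the data), and 0 to 1 with a library left out. Over all genes, the averaged light comparison called 1541 genes and 424 to 1957 under the alternatives, light in Nj 611 and 112 to 1009, and light in jj 25 and 0 to 271. No paired analysis was possible because the labels give no replicate numbers shared between groups.

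Signs that turned belong to log2 changes that did not pass. Without the libraries above 1000 CPM of Ttr, Slc12a2 was -0.048 for light in jj, -0.022 for light averaged, 0.014 for jj against Nj untreated, -0.037 treated (-0.0046 with choroid plexus level as a covariate) and -0.052 for the interaction, Gabra2 was 0.037 and Gabra5 0.012 for jj against Nj untreated, and Slc12a5 was -0.083 and Gabra4 0.021 treated. With prefix J15 only, Gabrb2 was -0.029 untreated. Without the 2 libraries together, Gabra5 was 0.021 untreated and -0.053 for light in jj, Gabra2 -0.025 for light in jj, Gabrd 0.28 treated and 0.0069 for the interaction, Slc12a5 0.026 and Gabra4 -0.050 for the interaction. With a library left out, the interaction ran from -0.16 to 0.043 for Gabra3, -0.044 to 0.14 for Gabra4, -0.36 to 0.066 for Gabrd and -0.076 to 0.015 for Slc12a5. In the same way jj against Nj treated ran from -0.105 to 0.010 for Gabrb2, -0.14 to 0.28 for Gabrd and -0.020 to 0.066 for Slc12a5, and untreated from -0.12 to 0.020 for Gabra5, -0.021 to 0.075 for Gabrb2 and -0.088 to 0.026 for Slc12a2. Light in jj ran from -0.028 to 0.055 for Gabra2 and -0.056 to 0.091 for Gabra5. The causes were not tested.

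Depth limits Gabrd most, at 89 to 268 counts per library.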
